A study of Mus musculus with 28 samples.

Results

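Microarray profiles of CA1 and CA2, 12 of the 36 deposited columns of gene values, were compared between these subregions of the mouse hippocampus, and the same differences were then taken from the 12 RNA-seq libraries of the same 4 kinds of tissue. The members were chosen by column name, which gives subregion and compartment: 3 arrays each for the cell bodies and for the dendrites of CA1 and of CA2. The sequenced tissue came from laser capture of 8 µm sections of 3 male mice from separate litters, numbered 492, 496 and 502, aged 6 to 8 weeks, on the C57BL/6J background. All 3 carried the Amigo2-EGFP reporter, so no sequenced group lacked it, and the other 12 libraries came from CA3 and the dentate gyrus (DG), for which no array column was given. The labels describe the sequenced animals only, and the animals, array type and RNA amplification behind the array columns are not given in the sources used here. Nothing states that the 3 arrays of a group came from separate animals, so the array p-values measure only the spread between these arrays, which may be technical.

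CA1 and CA2 are neighbouring fields of pyramidal neurons. CA1 neurons are known for plastic synapses in the stratum radiatum, whereas CA2 neurons are known for synapses that resist potentiation and for genes such as Amigo2, an adhesion protein, Rgs14, a regulator of G-protein signalling, and Pcp4, which binds calmodulin. The cell body layer holds the pyramidal somata, and the dendritic layer holds dendrites together with glia, vessels, interneurons and passing axons. An array reads the brightness of labelled RNA bound to fixed probes, and sequencing counts fragments, so the 2 values of a gene have different scales and were never tested against each other. In such pooled tissue, fewer cells of a type and less RNA per cell cannot be told apart.

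The array table held 11927 genes as log2 values after RMA, a method that corrects, normalizes and summarises probe brightness, and every one had a gene of the same symbol in the RNA-seq table. Values of 2 arrays of a group had correlations of 0.986 to 0.996 over genes, against 0.942 to 0.950 between CA1 and CA2 cell bodies and 0.946 to 0.963 between their dendrites. RNA-seq libraries of a group had correlations of 0.947 to 0.983 in cell bodies, but 0.697 to 0.845 in CA1 dendrites and 0.843 to 0.937 in CA2 dendrites. The CA1 dendritic libraries of mice 492 and 496 stood apart, with 15947 and 16656 genes at 10 normalized reads or more and up to 20081 in the other libraries, so dendritic results are also given without these libraries, called the CA1 pair from here on. Such a fit leaves 1 CA1 dendritic library, which is assumed to vary like the other groups, so a lost call there can come with an equally large difference. The median standard error (SE) of a log2 difference was 0.075 on the arrays and 0.345 in RNA-seq. All calls below had a limma p of less than 0.05 after Benjamini-Hochberg adjustment, and all differences are CA2 minus CA1 on the log2 scale of the platform named.

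Cell body layers of CA2 and CA1 were compared first, to see which subregion genes the arrays found. Cpne4, a calcium-dependent membrane-binding protein of the copine family (chromosome 9, 104547286 to 105034544 in mm10), had array values of 6.40, 6.19 and 6.21 in CA1 and 11.33, 11.23 and 11.26 in CA2. In RNA-seq its values were 6.34, 6.69 and 8.86 in CA1 and 14.86, 14.94 and 14.99 in CA2. The groups did not overlap on either platform, and this was the largest array difference of any gene higher in CA2. Its difference was 5.01 ± 0.154 on the arrays (SE, limma adjusted p = 2.66e-11) and 7.64 ± 0.469 in RNA-seq (SE, limma adjusted p = 2.08e-10).

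Another 7 genes had the next largest agreeing differences in the CA2 direction. Lrrtm4, a postsynaptic organizer of excitatory synapses, differed by 3.27 on the arrays and 4.13 in RNA-seq. Cacng5, an auxiliary subunit of AMPA receptors, differed by 3.21 and 5.26. These are the synaptic genes of the group. Pcp4 had CA1 array values of 9.70, 8.70 and 8.63 against 12.78, 12.83 and 12.78 in CA2, and a difference of 3.79 on the arrays and 6.92 in RNA-seq. Mctp1, a membrane protein with C2 domains, differed by 3.99 and 6.46, and Nrip3, named as a nuclear receptor interactor, by 3.82 and 5.96. The secreted proteins Fstl5, of the follistatin-like family, and Ccdc3 differed by 3.29 and 3.20 on the arrays and by 4.16 and 6.23 in RNA-seq. For all 8 genes the groups stood clear of each other on both platforms. Their choice by call and size made this likely, and the share of all genes with separate groups is not given here.

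In the CA1 direction the leading gene was Adgrl2, which encodes the adhesion receptor latrophilin 2 (chromosome 3, 148815583 to 148990555 in mm10). Its array values were 9.37, 9.47 and 9.39 in CA1 and 5.88, 6.20 and 6.27 in CA2, and its RNA-seq values were 13.06, 12.88 and 13.19 in CA1 and 7.52, 7.60 and 8.42 in CA2. No CA2 value reached a CA1 value. The difference was -3.29 ± 0.091 on the arrays (SE, limma adjusted p = 1.21e-11) and -5.19 ± 0.306 in RNA-seq (SE, limma adjusted p = 1.86e-11).

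C1ql3, a secreted synapse organizer, was lower in CA2 by -3.22 on the arrays and -4.57 in RNA-seq. Other genes chosen by the same rule were Man1a, a Golgi mannosidase (-2.96 and -4.33), Ndst4, a heparan sulfate sulfotransferase (-2.91 and -4.29), Wfs1, a membrane protein of the endoplasmic reticulum (-2.72 and -4.89), the potassium channel gene Kcnh7 (-2.65 and -3.32) and Ldb2, a cofactor of LIM domain transcription factors (-2.63 and -3.49). Man1a and Wfs1 are also members of the CA1 marker list. All genes named so far for cell bodies kept their call on both platforms in every alternative fit.

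**Figure D1:**
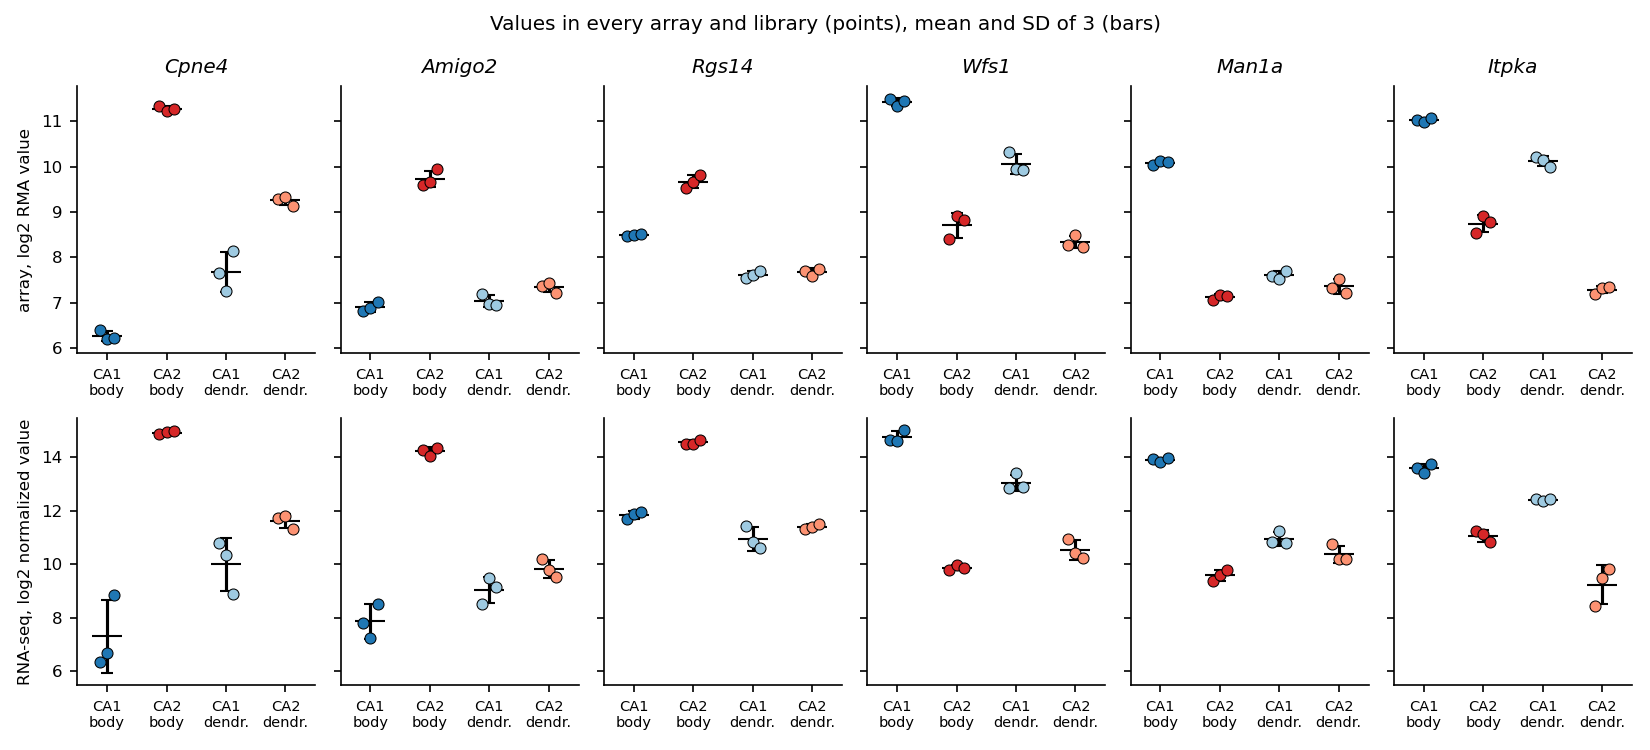
Log2 values of 6 genes in every array (top) and every RNA-seq library (bottom), with the mean and SD of 3 per group; body is the cell body layer and dendr. the dendritic layer. Cpne4 and Amigo2 sat higher in CA2 bodies on both platforms, Man1a lost most of its CA1 excess in dendrites, and Itpka was higher in CA1 in both compartments.

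Over all 11927 genes the arrays called 5643 (47.3%) in cell bodies, 3377 higher in CA2 (28.3%) and 2266 lower (19%). RNA-seq called 1521 of the same genes (12.8%), 1144 higher (9.59%) and 377 lower (3.16%). Over all 24911 genes tested it called 1809 (7.26%), 1321 higher (5.3%) and 488 lower (1.96%). Both called 1294 genes in the same direction, 943 higher and 351 lower, which is 22.9% of the array calls and 85.1% of the RNA-seq calls, and 8 in opposite directions. Across genes, which are not independent replicates and of which each platform's values share the same arrays or libraries, the differences had a Pearson r of 0.74 and a Spearman rho of 0.65. Without the libraries of mouse 492, 496 or 502 the genes called in the same direction were 803, 844 and 706. Under quantile normalization the array calls were 2578 higher and 2635 lower, and the RNA-seq calls among these genes 780 higher and 652 lower. The median RNA-seq difference of these genes was 0.21 as deposited and -0.01 under quantile normalization, and on the arrays 0.05 and 0.00, so directions of small differences depend on the scaling.

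**Figure D2:**
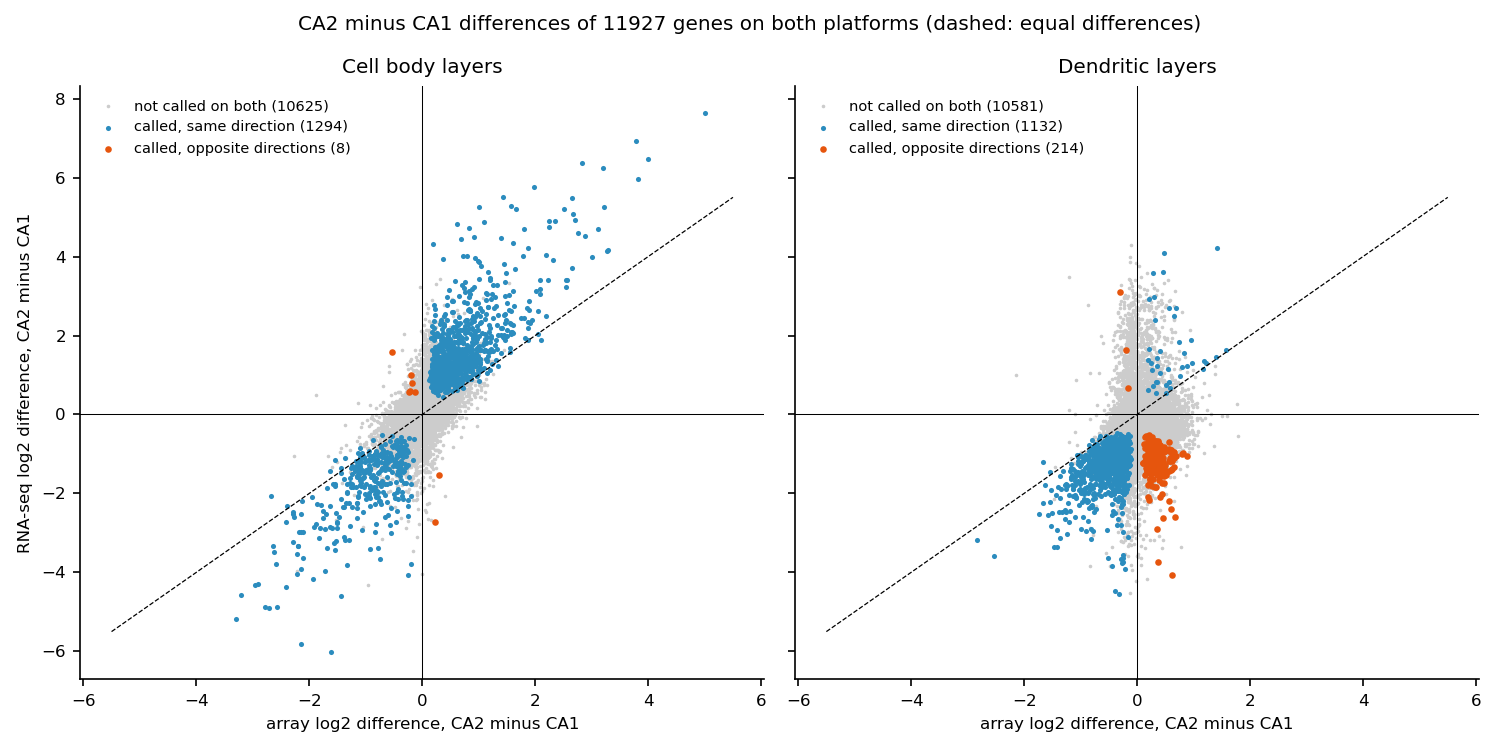
CA2 minus CA1 log2 difference of each of 11927 genes on the arrays (x axis) and in RNA-seq (y axis), with the line of equal differences dashed; colours mark genes called on both platforms in the same or in opposite directions. In cell bodies 1294 genes agreed and 8 were opposite, whereas in dendrites 1132 agreed and 214 were opposite, nearly all of the latter at the lower right of the plot.

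The larger the array difference in cell bodies, the more often RNA-seq made the same call. All 35 genes higher in CA2 by at least 2 on the arrays and 30 of 32 lower by at least 2 were called in the same direction by RNA-seq. From 1 to 2 these counts were 134 of 168 and 108 of 142. From 0.5 to 1 they were 338 of 765 and 126 of 459, and under 0.5 they were 436 of 2409 and 87 of 1633. Of the array calls that RNA-seq did not make, 2184 of 2432 higher genes (89.8%) and 1373 of 1909 lower genes (71.9%) had the same sign in RNA-seq. The array difference was the smaller one, with a median ratio to the RNA-seq difference of 0.445 among genes called in the same direction. The correlation rose with the RNA-seq level, with r of 0.65, 0.79 and 0.83 in the lowest, middle and highest bins of 3975, 3976 and 3976 genes.

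**Figure D3:**
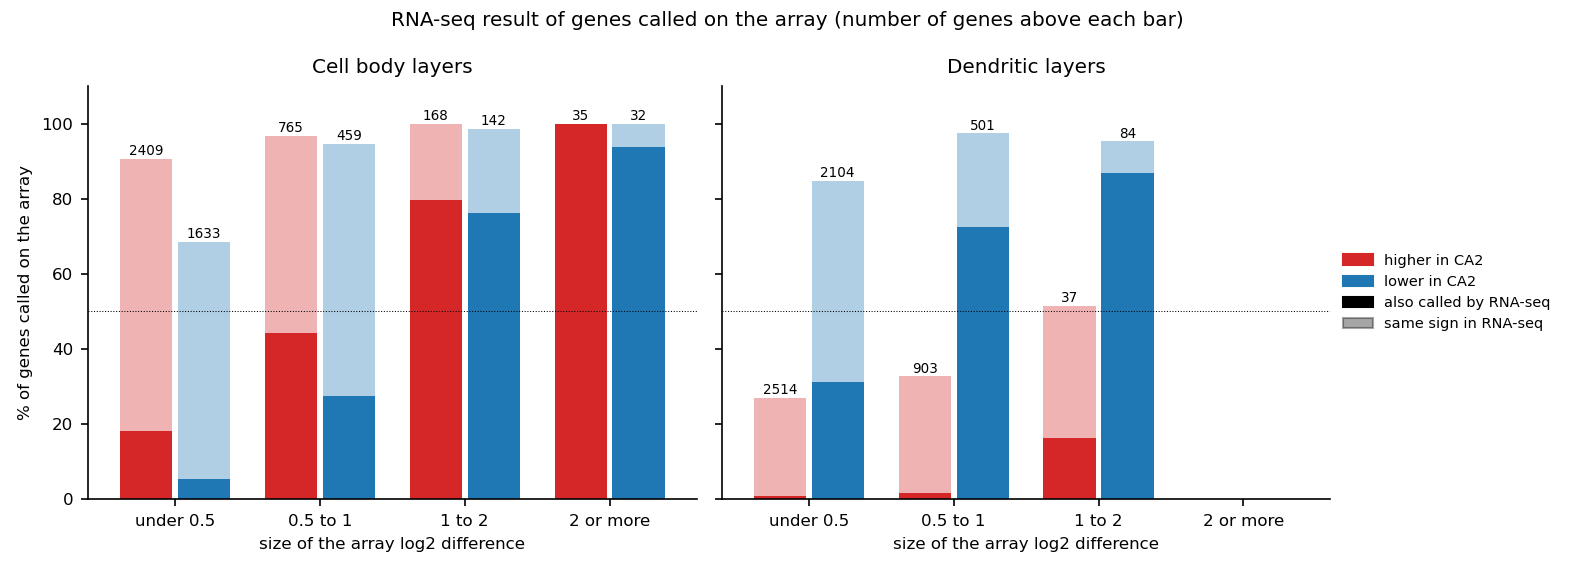
Share of array-called genes (y axis, percent) that RNA-seq called in the same direction (dark) or that had the same sign in RNA-seq (dark and pale together), by size of the array log2 difference (x axis), for genes higher (red) and lower (blue) in CA2; the number of genes stands above each bar and bins of fewer than 20 genes are not drawn. In cell bodies the dark share reached 100% and 93.8% at 2 or more, and in dendrites the dark part of the red bars stayed at 16.2% or less.

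Markers of the pyramidal fields differed between the cell body layers on both platforms. Of 9 measured CA1 markers, all 9 were lower in CA2 on both platforms, with medians of -2.28 on the arrays and -4.18 in RNA-seq. Of 12 measured CA2 markers, 12 were higher on the arrays and 11 in RNA-seq, with medians of 1.28 and 3.34. The exception was Actn2, an actin crosslinker, with differences of 0.58 and 1.22 and a limma adjusted p of 0.265 in RNA-seq. Of 5 CA3 markers, the kainate receptor gene Grik4 (1.87 and 4.21), Elavl2, an RNA-binding protein (1.47 and 3.35), Socs2, a suppressor of cytokine signalling (1.01 and 5.25), and Bok, of the BCL2 family (0.52 and 2.87), were higher in CA2 on both platforms. The medians of all 11927 genes were 0.05 and 0.21.

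Some markers had very different sizes on the 2 platforms. Pou3f1, a POU-domain transcription factor of CA1, had array values of 8.63, 8.56 and 8.75 in CA1 and 8.36, 8.54 and 8.26 in CA2. In RNA-seq it had 13.43, 13.40 and 13.24 in CA1 and 9.50, 9.07 and 9.29 in CA2. The groups did not overlap on either platform, but the difference was -0.26 on the arrays and -4.07 in RNA-seq. Fgf2, a growth factor and CA2 marker, differed by 0.94 and 3.97. Ncald, a calcium sensor that is not in the marker lists, differed by 0.69 and 4.45. Of 6 DG markers, 2 were higher in CA2 on both platforms, and Lct, the lactase gene, went the other way with -2.22 and -4.05, so it was higher in CA1 than in CA2.

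**Figure D4:**
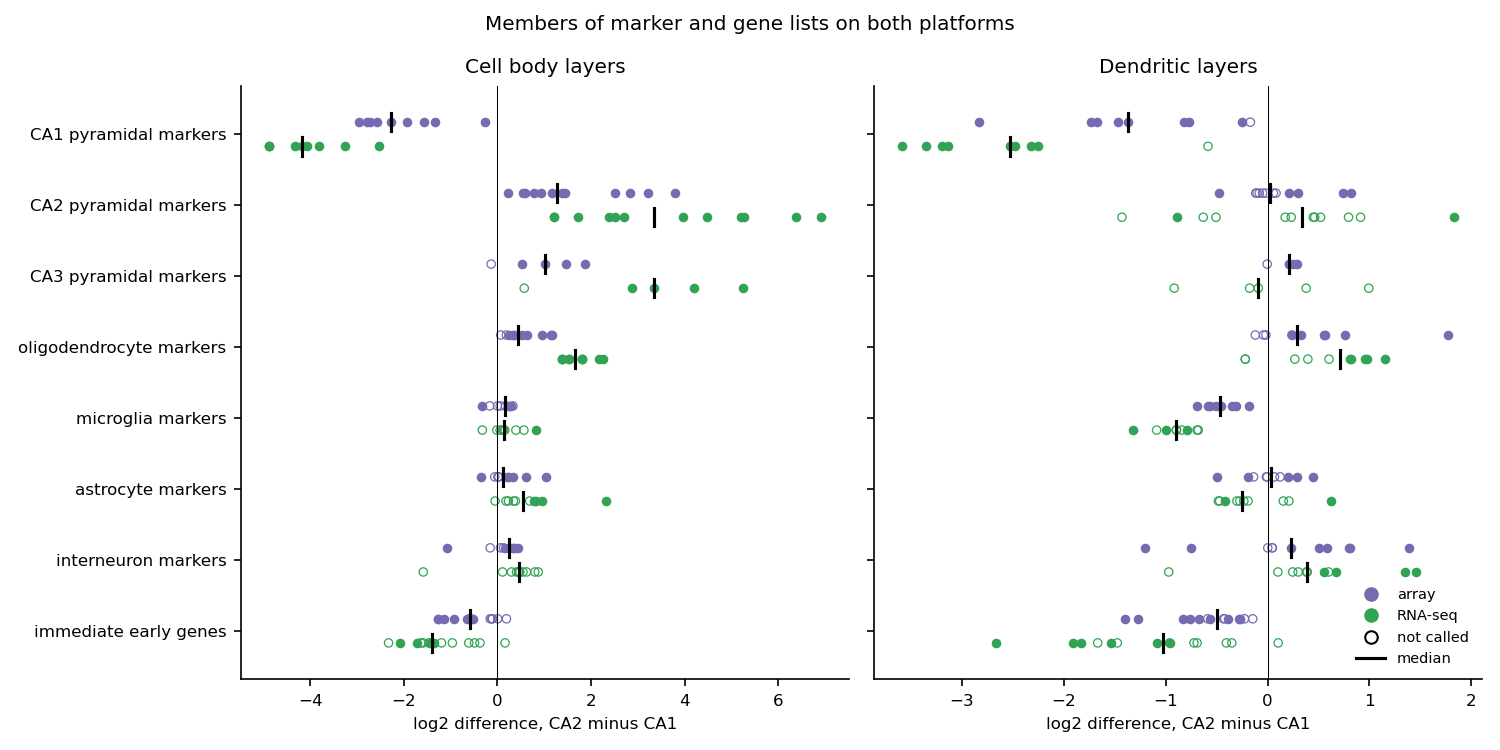
CA2 minus CA1 log2 difference (x axis) of every measured member of 8 gene lists on the arrays (purple) and in RNA-seq (green); filled points were called, open points were not, and the black bar is the list median. CA1 and CA2 markers lay on opposite sides of 0 in cell bodies, CA1 markers stayed below 0 in dendrites, and CA2 markers lay around 0 there.

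In other gene families of the cell body layer, members were called in both directions, and over all 11927 genes 7.91% were higher and 2.94% lower on both platforms. Of 43 potassium channel genes, 10 were higher (23.3%) and 5 lower (11.6%) in CA2 on both platforms, among them Kcnh1 (1.28 and 2.71), Kcnq5 (1.39 and 2.02) and Kcna1 (1.34 and 2.02) on the CA2 side and Kcnq3 (-1.11 and -1.66) on the CA1 side. Of 45 cadherin and axon guidance genes, 13 were higher (28.9%) and 8 lower (17.8%) on both, including the cadherins Cdh9 (2.04 and 2.04) and Cdh6 (-1.82 and -3.14) and the guidance receptor Robo1 (1.18 and 1.59). Of 23 ionotropic glutamate receptor genes and auxiliary subunits, 5 were higher (21.7%) and 4 lower (17.4%) on both, with Neto1, an auxiliary kainate receptor subunit, at 1.74 and 2.45 and Cacng3 at -2.27 and -2.61. Of 29 neuronal transcription factors, 8 were higher (27.6%) and 5 lower (17.2%) on both, with Tbr1 at 1.16 and 2.73, Sox5 at 1.15 and 3.06 and the glucocorticoid receptor gene Nr3c1 at -1.17 and -1.83. Of 17 calcium-binding genes, 6 were higher (35.3%) and 2 lower (11.8%) on both, and Calb1, the calcium buffer calbindin, was lower at -2.59 and -3.78. Under quantile normalization the RNA-seq calls of this list went from 7 higher and 2 lower to 3 and 5. For potassium channels they went from 11 and 6 to 10 and 11, and the arrays as deposited called 10 and 13. For glutamate receptors they went from 5 and 4 to 5 and 8. For transcription factors they went from 10 and 5 to 7 and 7, and for cadherin and guidance genes from 14 and 8 to 12 and 8.

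Of 16 synapse organizers, 6 were higher and 1 lower on both platforms, although the array calls of 9 higher and 4 lower became 5 and 5 under quantile normalization. Nrxn2 and Nrxn3, presynaptic adhesion proteins of the neurexin family, were higher by 0.51 and 0.23 on the arrays and by 1.18 and 0.95 in RNA-seq. Of 16 regulators of G-protein signalling, 3 were higher and 1 lower on both. Rgs14 had array values of 8.47, 8.50 and 8.52 in CA1 and 9.53, 9.66 and 9.81 in CA2, which do not overlap. Its difference was 1.17 ± 0.0749 on the arrays (SE, limma adjusted p = 2.84e-08) and 2.71 ± 0.252 in RNA-seq (SE, limma adjusted p = 4.15e-08). Rgs2 was lower, by -0.94 and -1.27.

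Genes of the mitochondrial calcium uniporter and of respiratory complex I were examined because the study's title names mitochondria. Mcu, the pore of the uniporter, had array values of 7.35, 7.36 and 7.34 in CA1 cell bodies and 8.20, 8.33 and 8.46 in CA2, with no overlap. It was higher in CA2 by 0.98 ± 0.0733 on the arrays (SE, limma adjusted p = 1.26e-07) and 2.13 ± 0.302 in RNA-seq (SE, limma adjusted p = 2.49e-05). Mcur1, a uniporter regulator, was higher by 0.86 and 1.72, and of the 8 genes measured these 2 were called on both platforms. Of 37 nuclear genes of complex I, the arrays called 10 higher and 10 lower (27% each, against 28.3% and 19% of all genes), and 7 higher and 15 lower under quantile normalization, while RNA-seq called 1 higher, Ndufa9, at 0.58 and 0.78, and 0 under quantile normalization.

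Markers of cells other than pyramidal neurons also differed between these cell body samples. Over all genes 28.3% were called higher on the arrays, 9.59% in RNA-seq and 7.91% on both. Of 10 oligodendrocyte markers, 8 were higher in CA2 on the arrays and all 10 in RNA-seq, with medians of 0.44 and 1.66, including the myelin gene Mobp (1.18 and 2.26). Of 10 astrocyte markers, 4 were higher on both platforms, with list medians of 0.11 and 0.54 and S100b the largest at 1.03 and 2.31. The arrays called 5 of them higher and 1 lower, which became 2 and 2 under quantile normalization. RNA-seq called 4 higher and 0 lower, which became 3 and 0. Of 11 interneuron markers, the arrays called 7 higher (63.6%) and 1 lower, which became 4 and 1 under quantile normalization. RNA-seq called 0 of them, with 0 also under quantile normalization. Of 9 endothelial markers the arrays called 5 higher (55.6%) and RNA-seq 0, with 3 and 0 under quantile normalization. The part of these cells in the pyramidal gene differences was not tested. Of 14 immediate early genes, which neurons transcribe after activity, 3 were lower in CA2 on both platforms (21.4%, against 2.94% of all genes). These were Arc (-1.14 and -1.44), Egr3 (-0.93 and -2.07) and Nr4a1 (-1.26 and -1.35).

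Platform-specific calls in cell bodies were of different kinds. Chrna5, a nicotinic receptor subunit, had array values of 8.21, 8.11 and 8.15 in CA1 and 5.65, 6.09 and 6.09 in CA2. Its RNA-seq values were 10.16, 9.86 and 9.82 in CA1 and 5.94, 5.89 and 6.09 in CA2. The groups were separate on both platforms, but the RNA-seq SE of 1.5, which pools the spread over all 8 tissue groups, left the difference of -3.97 uncalled (limma adjusted p = 0.135). The same held for Smim18, a small membrane protein (1.89 and 2.84), Bdh2, a dehydrogenase (1.53 and 3.34), and Hcrtr2, an orexin receptor (1.51 and 2.36), whose RNA-seq differences had SEs of 1.01, 1.35 and 1.15. Mir5125, the gene of a microRNA hairpin, was lower on the arrays by -1.89, and its RNA-seq difference was 0.50.

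Pter, which encodes a phosphotriesterase-related protein, was the leading gene called by RNA-seq only. It had array values of 6.07, 6.04 and 5.95 in CA1 and 6.12, 6.03 and 5.91 in CA2, which overlap. In RNA-seq it had 12.24, 12.16 and 12.08 in CA1 and 7.09, 8.37 and 8.90 in CA2, a difference of -4.04 ± 0.428 (SE, limma adjusted p = 3.44e-07). Pter lies on chromosome 2 from 12924041 to 13003455 in mm10, and C1ql3, on the opposite strand, starts at 13003457, so the annotation leaves 1 base between these genes. The sources used here do not state that counting used strand, and whether reads near this boundary bear on the Pter difference was not tested. The other 5 RNA-seq-only genes (Klhdc7a, Serpinh1, Notch4, Stpg1 and Myh7) had array values of 6.07 to 7.40 in every cell body array, and Serpinh1 was listed at 0 in 1 CA1 library.

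Opposite calls were rare in cell bodies. Bhlhe22, a basic helix-loop-helix transcription factor, had array values of 8.76, 8.57 and 8.77 in CA1 and 8.02, 8.23 and 8.22 in CA2, but RNA-seq values of 11.20, 10.80 and 11.13 in CA1 and 12.32, 12.55 and 12.98 in CA2. Neither pair of groups overlapped, and the differences were -0.54 ± 0.112 (SE, limma adjusted p = 0.00131) and 1.57 ± 0.247 (SE, limma adjusted p = 9.73e-05). Marcksl1, a substrate of protein kinase C, was higher on the arrays by 0.23 and lower in RNA-seq by -2.73. The other 6 were Scarna2, a small Cajal body RNA, Ap3d1, a subunit of the AP-3 adaptor, and Camk2a, Pigq, Tpp1 and mt-Rnr1, the last 4 named after their values were seen.

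Dendritic layers of CA2 and CA1 were compared in the same way. Of the genes called in the same direction on both platforms, 1092 were higher in CA1 dendrites and 40 in CA2 dendrites, against 455 and 303 under quantile normalization of the RNA-seq. Itpka, a kinase of inositol trisphosphate known from dendrites (chromosome 2, 119742337 to 119751263 in mm10), had array values of 10.22, 10.14 and 9.99 in CA1 and 7.20, 7.31 and 7.34 in CA2. Its RNA-seq values were 12.45, 12.38 and 12.43 in CA1 and 8.42, 9.48 and 9.80 in CA2. The groups did not overlap, and the difference was -2.83 ± 0.0865 on the arrays (SE, limma adjusted p = 2.33e-10) and -3.19 ± 0.271 in RNA-seq (SE, limma adjusted p = 3e-08). Without the CA1 pair the RNA-seq difference was -3.16.

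The other leading CA1 genes of the dendritic layer included several signalling genes. Itpr1, the inositol trisphosphate receptor of calcium stores, differed by -1.58 on the arrays and -2.55 in RNA-seq, and Doc2b, a calcium sensor of vesicle release, by -2.54 and -3.60. Git1, a scaffold with Arf GTPase-activating function, differed by -1.54 and -2.21, and Sstr4, a somatostatin receptor, by -1.53 and -2.83. Phyhip, an interactor of phytanoyl-CoA hydroxylase, differed by -1.63 and -1.78. Wfs1 differed by -1.73 and -2.53. The genes named here were also called in every alternative fit. These include the fits without the CA1 pair and without the CA2 dendritic libraries of mice 492 and 502, for which repeat libraries exist, and each of these 2 fits rests on 1 library in that dendritic group.

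In the CA2 direction Cpne4 was the leading gene on the arrays among genes called on both platforms. Its array values were 7.65, 7.26 and 8.14 in CA1 dendrites and 9.29, 9.34 and 9.14 in CA2 dendrites. Its RNA-seq values were 10.78, 10.35 and 8.87 in CA1 and 11.74, 11.79 and 11.33 in CA2. The groups stood apart on both platforms, with differences of 1.57 ± 0.154 (SE, limma adjusted p = 3.08e-06) and 1.62 ± 0.469 (SE, limma adjusted p = 0.0301). Clmn, a membrane protein with an actin-binding domain, differed by 1.17 on the arrays and 1.14 in RNA-seq. Enpp2, the lysophospholipase autotaxin and also a marker of choroid plexus, differed by 1.22 and 1.30, and these were the only 2 of the 8 leading CA2 genes called in every alternative fit.

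The other 5 lost their RNA-seq call in at least 1 alternative. Reln, the secreted glycoprotein reelin, differed by 1.39 and 1.45, Nrip3 by 1.19 and 1.36, Ccdc3 by 0.97 and 1.31, and Opalin, an oligodendrocyte membrane protein, by 0.96 and 1.88. Syce2, a component of the synaptonemal complex, had RNA-seq values of 6.17, 0.88 and 7.18 in CA1 and 9.31, 8.59 and 9.01 in CA2, so the CA1 library of mouse 496 lay far below the others. Its difference was 4.23, and 2.07 without the CA1 pair. Without that pair none of these 5 was called, although the differences of Reln (1.71), Nrip3 (2.08), Ccdc3 (1.63) and Opalin (1.73) were larger than or close to those with it. Cpne4 kept its call there, with 2.85, and lost it in other alternatives.

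Over all genes the arrays called 6146 (51.5%) in dendrites, 3454 higher in CA2 (29%) and 2692 lower (22.6%). RNA-seq called 1937 of these genes (16.2%), 70 higher (0.587%) and 1867 lower (15.7%). Over all 24911 genes tested it called 2447 (9.82%), 435 higher (1.75%) and 2012 lower (8.08%). Both called 1132 in the same direction, 40 higher and 1092 lower, which is 18.4% of the array calls and 58.4% of the RNA-seq calls, and 214 in opposite directions, of which 211 were higher in CA2 on the arrays. The differences had a Pearson r of 0.26 and a Spearman rho of 0.29 over genes. The median RNA-seq difference of these genes was -0.39, against 0.02 on the arrays. Of the genes higher on the arrays 28.8% had the same sign in RNA-seq, and of those lower 87.3%.

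RNA-seq scaling moved this split. Under quantile normalization of the RNA-seq libraries the median of these genes was 0.05, with 572 called higher and 612 lower, and 758 genes were called in the same direction as on the arrays, 303 higher and 455 lower, with 77 opposite. Of the 1132 genes that agreed as deposited, 495 also agreed under quantile normalization. Without the CA1 pair the median was -0.16, with 46 called higher and 405 lower, and 388 genes agreed, 27 higher and 361 lower, with 14 opposite. Of those 388 genes, 368 were among the 1132. Without all libraries of mouse 492 the genes called in the same direction were 621 and the opposite ones 49, without mouse 496 they were 569 and 35, and without mouse 502 they were 1015 and 376. Whether library composition, RNA input or the scaling gave the RNA-seq split was not tested.

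**Figure D5:**
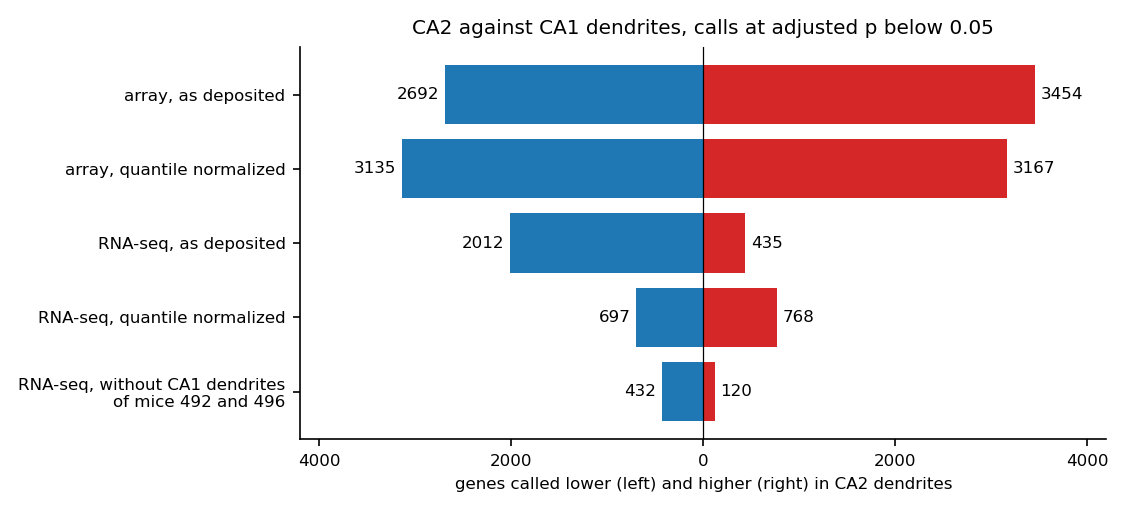
Number of genes called higher (red, right) and lower (blue, left) in CA2 dendrites than in CA1 dendrites, among 11927 array genes or 24911 RNA-seq genes, by platform and setting. The array counts were 3454 and 2692 as deposited, and the RNA-seq counts of 435 and 2012 became 768 and 697 under quantile normalization.

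By size, array-lower genes of the dendritic layer had the same call in RNA-seq in 73 of 84 cases at differences of 1 to 2, in 363 of 501 at 0.5 to 1, and in 654 of 2104 under 0.5. Array-higher genes had it in 6 of 37, 15 of 903 and 19 of 2514 cases. The correlation over genes was 0.13, 0.31 and 0.59 in the lowest, middle and highest bins of RNA-seq level. Among the 4651 genes above the median level on both platforms it was 0.55 in dendrites and 0.83 in cell bodies.

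CA1 markers kept their direction in the dendritic layer. Of 9 measured, 8 were lower in CA2 on the arrays, 8 in RNA-seq and 7 on both, with medians of -1.37 and -2.53. The exceptions were Man1a, with -0.25 on the arrays and -0.58 in RNA-seq, where it was not called (limma adjusted p = 0.131), and Pou3f1, with -0.17 on the arrays (limma adjusted p = 0.117) and -3.59 in RNA-seq. Most CA2 markers were not called there. Of 12 measured, 4 were higher (33.3%, against 29% of all genes) and 1 lower on the arrays and 1 higher and 1 lower in RNA-seq. Under quantile normalization RNA-seq called 4 higher and 0 lower. Their medians were 0.02 on the arrays and 0.34 in RNA-seq, against 0.02 and -0.39 for all genes. The RNA-seq median was 0.77 under quantile normalization and 0.80 without the CA1 pair, against 0.05 and -0.16 for all genes.

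Necab2, a neuronal calcium-binding protein, was the CA2 marker called higher in dendrites on both platforms. It had array values of 8.63, 8.69 and 8.66 in CA1 and 9.26, 9.44 and 9.51 in CA2, and RNA-seq values of 10.64, 9.37 and 10.08 in CA1 and 12.16, 11.46 and 11.97 in CA2, with no overlap. Its difference was 0.74 ± 0.0838 (SE, limma adjusted p = 1.01e-05) and 1.83 ± 0.286 (SE, limma adjusted p = 0.000123). Amigo2 was called on the arrays at 0.30 and not in RNA-seq at 0.79 (limma adjusted p = 0.136). Pcp4 was called on the arrays at 0.82 and not in RNA-seq at 0.17, where its CA1 values ran from 9.97 to 13.24. Its RNA-seq difference was 1.76 without the CA1 pair and 0.69 under quantile normalization, and it was called in neither. Rgs14 was called on neither platform, with 0.06 and 0.46. Under quantile normalization RNA-seq called Rgs14 at 0.97 and Amigo2 at 1.27. Adora1, the A1 adenosine receptor, was lower in CA2 dendrites by -0.48 and -0.89, and under quantile normalization its RNA-seq difference was -0.23 and not called, whereas without the CA1 pair it was -0.85 and called.

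Neuronal gene families differed in how their members were called in dendrites, in a table whose RNA-seq median was itself -0.39 and in which 0.335% of all genes were higher and 9.16% lower on both platforms. Of all genes the arrays called 29% higher and 22.6% lower, and RNA-seq 0.587% and 15.7%. Of 43 potassium channel genes the arrays called 5 higher (11.6%) and 22 lower (51.2%). Of 45 cadherin and guidance genes they called 17 higher (37.8%) and 10 lower (22.2%), closer to the shares of all genes. Of 16 synapse organizers they called 3 higher and 3 lower (18.8% each). Of the 43 potassium channel genes, 14 were lower and 0 higher on both, with Kcnh3 at -0.82 and -2.89 and Kcnq3 at -0.79 and -1.58. RNA-seq called 16 of them lower and 0 higher, against 10 and 3 under quantile normalization and 5 and 2 without the CA1 pair. Of 8 general neuron markers, 5 were lower on both, with Rbfox3, a nuclear RNA-binding protein of neurons, at -0.60 and -1.43, and Slc17a7, the vesicular glutamate transporter, at -0.54 and -1.09. Under quantile normalization RNA-seq called 1 of the 8 lower and 1 higher. Of 23 glutamate receptor genes, the arrays called 9 higher and 10 lower, and RNA-seq 0 higher and 8 lower. Those RNA-seq counts became 4 and 2 with quantile normalization and 0 and 2 without the CA1 pair. On both platforms 6 were lower, with the NMDA receptor subunit Grin2a at -0.99 and -1.05, and Gria3, an AMPA receptor subunit, was opposite at 0.24 and -0.79.

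Immediate early genes were lower in CA2 dendrites, 9 of 14 on the arrays, 6 in RNA-seq and 6 on both, with medians of -0.50 and -1.03. Over all genes 22.6% were lower on the arrays, 15.7% in RNA-seq and 9.16% on both. Arc differed by -1.40 and -1.83, Egr3 by -1.27 and -2.66 and Homer1 by -0.83 and -1.91. Under quantile normalization RNA-seq called 4 lower, and without the CA1 pair it called 3. Of 37 complex I genes, 15 were higher and 6 lower on the arrays (40.5% and 16.2%, against 29% and 22.6% of all genes). These counts were 8 and 9 under quantile normalization, and RNA-seq called 0 higher and 1 lower. Mcu differed by 0.00 on the arrays and -0.41 in RNA-seq and was called on neither (limma adjusted p = 0.974 and 0.443), and 0 of 8 uniporter genes were called on both platforms.

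Non-neuronal and interneuron markers differed in the dendritic layer as well. Over all genes 29% were called higher and 22.6% lower on the arrays, and 0.587% and 15.7% in RNA-seq. On both platforms 0.335% were higher and 9.16% lower. Of 10 oligodendrocyte markers, 4 were higher in CA2 on both platforms, among them Mag (0.55 and 1.15), Mobp (0.76 and 0.98) and Cldn11 (0.33 and 0.82), and RNA-seq called 5 of the 10. Without the CA1 pair RNA-seq called 0, with a median of 0.68 against 0.71 with it, and under quantile normalization it called 6, with a median of 1.24. Of 9 microglia markers, all 9 were lower on the arrays (median -0.47) and 3 in RNA-seq (median -0.89), among them Csf1r and P2ry12, with 0 in RNA-seq under quantile normalization, where the arrays still called 9. Of 11 interneuron markers, 3 were higher on both, the GABA synthesis genes Gad1 (0.58 and 0.67) and Gad2 (0.51 and 0.55) and Reln. The arrays called 6 of the 11 higher and 2 lower, with a lowest difference of -1.20. RNA-seq called 4 higher and 0 lower, with a lowest difference of -0.97. Without the CA1 pair the RNA-seq median of this list went from 0.39 to 1.01. Under quantile normalization RNA-seq called 6, with a median of 1.05. Of 9 endothelial markers, 6 were higher on the arrays and 0 were called in RNA-seq. The part of these cells in the dendritic differences was not tested.

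Calls on 1 platform in dendrites differed in their RNA-seq values. All 6 genes named as called by RNA-seq only, which are Tmem150a, Acsf3, Wdr3, Tpd52l1, Mtmr14 and Chac2, were listed at 0 in 1 of the 6 dendritic libraries. Tmem150a, a membrane protein, had RNA-seq values of 0.00, 6.05 and 6.28 in CA1 and 8.62, 8.27 and 8.31 in CA2, and array values of 7.68, 7.68 and 7.75 in CA1 and 7.61, 7.57 and 7.61 in CA2. The groups did not overlap on either platform, with differences of 4.29 in RNA-seq and -0.11 on the arrays, the latter not called. Without the CA1 pair the RNA-seq differences of Tmem150a, Acsf3 and Wdr3 were 2.05, 0.36 and 0.55, against 4.29, 3.87 and 3.77 with it. Those of Tpd52l1, Mtmr14 and Chac2 stayed large, at -3.73, -3.04 and -3.29, against -4.51, -4.22 and -3.94 with it. The zeros lay in the CA1 libraries of mice 492 and 496 or in the CA2 library of mouse 492. Among all array genes, 3.41% had a dendritic library at 0, against 0.883% of those called in the same direction and 2.54% of those called by RNA-seq only.

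Array-only calls in dendrites included Ermn, a cytoskeletal protein of oligodendrocytes, with array values of 7.46, 7.65 and 8.29 in CA1 and 9.70, 9.41 and 9.58 in CA2. In RNA-seq its values were 10.20, 11.34 and 10.75 in CA1 and 10.51, 11.15 and 11.43 in CA2, which overlap, and the differences were 1.77 and 0.27. Brix1, a ribosome biogenesis factor, differed by 1.78 and -0.55 and Pdgfd, a growth factor, by 1.58 and -0.04. On the CA1 side Klk8, the protease neuropsin, differed by -1.46 and -2.15 (limma adjusted p = 0.0827 in RNA-seq). Thbs4, a thrombospondin, differed by -1.45 and -1.34, and neither was called by RNA-seq.

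The leading opposite calls in dendrites, chosen by the size of their differences, had clear groups on both platforms. Rap1b, a small GTPase, had array values of 9.78, 9.84 and 10.08 in CA1 and 10.93, 10.66 and 10.74 in CA2. Its RNA-seq values were 11.18, 11.85 and 11.20 in CA1 and 10.04, 10.55 and 10.48 in CA2. Both sets of groups were free of overlap, with differences of 0.88 ± 0.0807 (SE, limma adjusted p = 1.93e-06) and -1.05 ± 0.236 (SE, limma adjusted p = 0.00459). Rlim, a ubiquitin ligase (0.82 and -0.98), Clk1, a kinase of splicing factors (0.79 and -1.0), and Ube2h, a ubiquitin-conjugating enzyme (0.68 and -1.05), had the same pattern. Under quantile normalization, and without the CA1 pair, the RNA-seq differences of these 4 genes stayed below 0 and were not called.

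The compartments were then set against each other, by the dendritic minus the cell body difference. The arrays called 4093 genes (34.3%), 1845 higher (15.5%) and 2248 lower (18.8%) in this contrast. RNA-seq called 2153 of the same 11927 genes (18.1%), 100 higher (0.838%) and 2053 lower (17.2%), and over all 24911 genes 2505 (10.1%), 303 higher (1.22%) and 2202 lower (8.84%). Under quantile normalization the RNA-seq calls over all genes were 396 higher and 413 lower. Both called 1334 in the same direction and 32 in opposite directions, with r of 0.49 over genes. For CA2 markers the excess over CA1 shrank in dendrites, since 12 of 12 were called lower in the contrast on the arrays and 9 on both platforms, and 8 of 12 in RNA-seq without the CA1 pair. Amigo2 had a contrast of -2.53 ± 0.138 on the arrays (SE, limma adjusted p = 5.58e-08) and -5.58 ± 0.468 in RNA-seq (SE, limma adjusted p = 1.06e-07). For CA1 markers 4 of 9 shrank toward 0 on both, with Man1a the largest at 2.71 and 3.75. The arrays called 6 of the 9 higher and 1 lower in the contrast, with a lowest value of -0.55, and RNA-seq called 4 higher and 0 lower. Of all 11927 genes, 85 were called higher and 1249 lower in the contrast on both platforms.

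Genes called in both compartments on both platforms formed 3 sets. In the first, 23 genes were higher in CA2 in cell bodies and dendrites, led by Cpne4, Syce2, Nrip3, Clmn and Ccdc3 and including Necab2 and the myelin genes Mobp and Mag. In the second, 141 were lower in CA2 in both, including Itpka, Doc2b, Wfs1, Itpr1 and Htr1a, a serotonin receptor, at -2.21 and -3.53 in the somatic layer and at -1.28 and -2.42 in the dendritic one. In the third, 53 were higher in CA2 cell bodies and lower in CA2 dendrites, including Adora1, the adhesion gene Dscam (0.63 and 1.27, then -0.51 and -0.89) and Bsn, a scaffold of the presynaptic active zone (0.33 and 1.22, then -0.55 and -0.96). No gene had the reverse pattern, and 7 genes had it under quantile normalization of the RNA-seq. That normalization gave 114, 167 and 6 genes for the 3 sets, and leaving out the CA1 pair gave 17, 81 and 15.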

How the data were processed

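Arrays covered CA1 and CA2 cell bodies and dendrites (3 each), and RNA-seq 24 libraries. The deposited array values are log2 values that the table's name gives as RMA values of genes detected and shared with RNA-seq. The deposited RNA-seq values are log2 values of Salmon estimates, median normalized by the authors as the table's name gives it. Salmon 0.9.1 and mm10 are listed per the submitters' processing notes. Per the labels' protocols, libraries used 5 ng of cell body RNA or 1 ng of dendritic RNA and 16 PCR cycles. Estimates carry no read counts for an interval, and the number of arrays limits their precision. Repeat libraries of CA2 and DG dendrites (4) had no column, and whether table columns hold them is not stated.

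Each table was fitted on its own with limma 3.58.1 (statmod 1.5.0, R 4.3.3), with trended and robust spread. Array fits used 4 groups (8 residual degrees of freedom). RNA-seq fits used 24 libraries in 8 groups with mouse as a block, since the labels give the 8 libraries of a mouse to 1 animal (14 residual degrees of freedom), and tested 24911 of 49341 genes at log2(10) or more in at least 3 libraries. RNA-seq libraries with the same mouse number, checked for CA1 and CA2, had deviations from their group means correlated by -0.04 to 0.07. Tests were two-sided with Benjamini-Hochberg adjustment over all genes of a table, and calls were at 0.05. The code was tested on simulated data. Genes were matched by symbol, and agreement is described without a test. Named genes were the 8 each way with the largest smaller difference among those called on both platforms, 3 each way called on 1 platform, up to 4 opposite, Amigo2, Rgs14, Pcp4 and Mcu, and marker list members. Individual results of a few of these genes are not reported here, and counts keep them. Coordinates are from GENCODE M21. The members and lists were chosen with earlier results of these data known. Alternatives covered scaling, filters, samples, blocks and thresholds.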

Additional observations from a re-analysis of the deposited data

Results flagged for a closer look

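The CA2 minus CA1 difference itself differed between dendrites and cell bodies, by an interaction term in limma, for 4093 genes on the arrays and for 2505 of 24911 genes in RNA-seq (n = 3 per group). Among the named genes, 5 had opposite signs in the 2 compartments on both platforms and a called interaction on both. The array interaction was -1.02 for Adora1, -1.042 for Fgf2, -0.9833 for Mcu, -1.014 for Socs2 and -1.559 for Vcan, a matrix proteoglycan. In RNA-seq it was -2.10, -5.40, -2.55, -6.16 and -3.03 for the same genes. Of these, only Adora1 was called in dendrites as well, and the array differences of Mcu and Socs2 in dendrites were 0.00. Under quantile normalization the RNA-seq differences of Mcu and Vcan in dendrites were 0.00 and 0.03, and without CA1 dendrites of mice 492 and 496 they were 0.61 and 0.04. Their opposite signs in RNA-seq therefore depend on the scaling and on those libraries.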

How the results depend on the processing

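The split of calls and the signs of small differences moved with the scaling. Under quantile normalization the RNA-seq calls in dendrites went from 435 higher and 2012 lower to 768 and 697, the array calls in cell bodies from 3377 and 2266 to 2578 and 2635, and the opposite calls in dendrites from 211 higher and 3 lower on the arrays to 37 and 40. Counts for cell bodies, dendrites and their contrast are given in that order. On the arrays, requiring a difference of at least 0.5 left 1601, 1528 and 1602 calls, of which 771, 459 and 690 had the same direction in RNA-seq and 1, 28 and 3 the opposite one. With CA1 and CA2 libraries alone, RNA-seq called 1160, 1271 and 1257 genes, with 4, 64 and 9 opposite. RNA-seq quantile normalization gave 1465 calls in dendrites, with 77 opposite, and 809 in the contrast, with 560 in the same direction and 5 opposite. With both platforms quantile normalized, the same-direction counts in dendrites and the contrast were 737 and 553, with 97 and 4 opposite. Without the CA1 dendritic libraries of both mouse 492 and mouse 496, RNA-seq called 552 and 970 genes in dendrites and the contrast, with 388 and 724 in the same direction and 14 and 2 opposite. Leaving out the 492 library alone gave 137 opposite in dendrites, and the 496 library alone 120, with 20 in the contrast. Without CA2 dendrites of mice 492 and 502, chosen like these after seeing the data, there were 778 and 1488 calls, 521 in the same direction in dendrites, and 37 and 13 opposite. Without a filter on low values 18 genes were opposite in the contrast. Among genes above the median level, 726 had the same direction in cell bodies and 20 were opposite in the contrast. At an adjusted p below 0.01 the same-direction counts were 843, 679 and 730, with 2, 47 and 2 opposite. The cause of these shifts was not tested.

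Leaving out replicates moved array calls over 4773 to 5906, 5444 to 6324 and 3305 to 4576, and RNA-seq calls over 847 to 2070, 968 to 2627 and 865 to 2258. Without all libraries of mouse 492, RNA-seq called 997, 1060 and 880 genes, with 803, 621 and 643 in the same direction and 2, 49 and 3 opposite. Without mouse 496 it called 1058, 968 and 865, with 844, 569 and 652 in the same direction, and without mouse 502 it called 847, 2627 and 1709. Same-direction counts ran from 706 to 1444, 569 to 1015 and 643 to 1288 when RNA-seq libraries were left out, and from 1223 to 1304, 1064 to 1131 and 1168 to 1373 for arrays. Opposite counts ran from 2 to 10, 35 to 376 and 1 to 36, and for arrays from 4 to 8, 181 to 236 and 17 to 45. Arrays with the same number had deviation correlations of -0.11 to 0.13, and RNA-seq libraries of the same mouse -0.04 to 0.07. Since libraries known to share a mouse had such low values, these correlations cannot show whether array numbers pair samples. The replicate block on the arrays gave 5474, 5950 and 3894 calls. Without the mouse block RNA-seq gave 1681, 2294 and 2300 calls and 1227, 1080 and 1265 in the same direction. Every array symbol was unique, so keeping symbols with 1 row changed no value. However, 11 of the 11927 array rows held the same values as another row with a different symbol, and all were kept in the counts. Array precision rests on 3 arrays a group, and dendritic RNA-seq on 1 ng inputs.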
